A study of Arabidopsis thaliana with 9 samples.

Results

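The 44 nuclear genes described here code for the proteins that harvest light and carry out the first electron transfers in the chloroplasts of *Arabidopsis* leaves. They were chosen by gene name and locus, not by a rule on their values, though earlier results of these data were known. They comprise 6 genes for the photosystem I antenna (LHCA1 to LHCA6) and 15 for the photosystem II antenna (LHCB1 to LHCB7, with the copies of LHCB1, LHCB2 and LHCB4 counted singly). The others are 12 for photosystem I subunits (PSAD to PSAO) and 11 for photosystem II subunits (PSBO to PSBY, with PSBS). Together they are 44 of the 37366 genes listed for each library. Values are in TPM, which divides each gene's reads by its length and scales every library to the same total.

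All plants were wild type (WT) of ecotype Columbia and 4 weeks old, and RNA came from rosette leaves. In biological low R:FR the plants stood for the last 1 week at a red to far-red ratio (R:FR) of 0.3 made by a surrogate weed, a turf of grass with no root contact. In artificial low R:FR they stood for 1 week at the same ratio made by far-red LEDs, and in weed-free, the control, they stayed at 1.4. Libraries of these groups are called biological, artificial and weed-free. Each group had 3 libraries, each from the pooled leaves of 3 plants. The study describes its RNA-seq as done in independent experiments, but whether a replicate number marks an experiment is not given in the sources used here, so the fit has no block and blocked values are given where they change a call. A gene is said to be called, or to rise or fall, by limma on all 9 libraries unless another fit is named.

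Chlorophyll-binding LHCA and LHCB proteins gather light and pass its energy to the photosystem I and photosystem II cores. Photosystem II splits water and photosystem I reduces ferredoxin, and the cores themselves are partly encoded in the chloroplast genome, while all antenna proteins and many smaller subunits are nuclear. Antenna genes are known for strong control by phytochrome, by the circadian clock and by signals from the chloroplast, and GOLDEN2-LIKE transcription factors (GLK1 and GLK2) are known activators of many of them.

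The libraries had the profile of leaf, with little or no root or flower signal. The 5 mesophyll markers summed to 29459 to 38389 TPM in biological libraries, 66348 to 83749 TPM in artificial libraries and 48724 to 57874 TPM in weed-free, so that these markers themselves moved with the groups. Of the 5 root markers, EXPA7 and COBL9 were at 0 in every library and the highest sum was 0.196 TPM. Of the 5 floral markers, AP1 and LFY were at 0 and the highest sum was 0.755 TPM. Over the 9 libraries, dividing-cell markers summed to 11.6 to 23.2 TPM and guard cell markers to 21.5 to 33.3 TPM. Those of epidermis summed to 8.93 to 19.5 TPM and those of vascular tissue to 229 to 319 TPM. Replicate 3 stood apart in each group: chi-square per degree of freedom, which is near 1 for sampling noise, was 9.41 to 13.1 between it and the other replicates, against 2.29 to 6.03 between replicates 1 and 2. Clock genes differed with it, and with the groups. ELF4, an evening clock gene, was at 141, 143 and 439 TPM in biological libraries, 3.86, 3.27 and 80.2 TPM in artificial libraries and 108, 104 and 449 TPM in weed-free. CCA1, a morning clock gene, was at 5.24, 3.61 and 1.47 TPM in biological libraries, 37.0, 40.9 and 8.21 TPM in artificial libraries and 4.12, 4.55 and 1.27 TPM in weed-free. The time of harvest was not given in the sources used here, and the part of clock state in the results below was not tested.

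The photosystem and antenna genes made up a large share of leaf mRNA. Together they held 30.6, 31.7 and 28.1% of all TPM in biological libraries, 26.0, 25.5 and 26.3% in artificial libraries and 30.6, 30.9 and 24.9% in weed-free. Between 29 and 33 of the 50 most abundant genes of a library were among them. LHCB1.3 was the most abundant gene of all by its mean, and LHCB1.2 was the fifth. LHCB1.5 was listed at 0 TPM in every library. The spread among the 43 genes above 0 TPM was wide. LHCB7, a rare antenna protein of little-known role, averaged 8.92 TPM over the 9 libraries and LHCB1.3 averaged 44645 TPM.

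**Figure D1:**
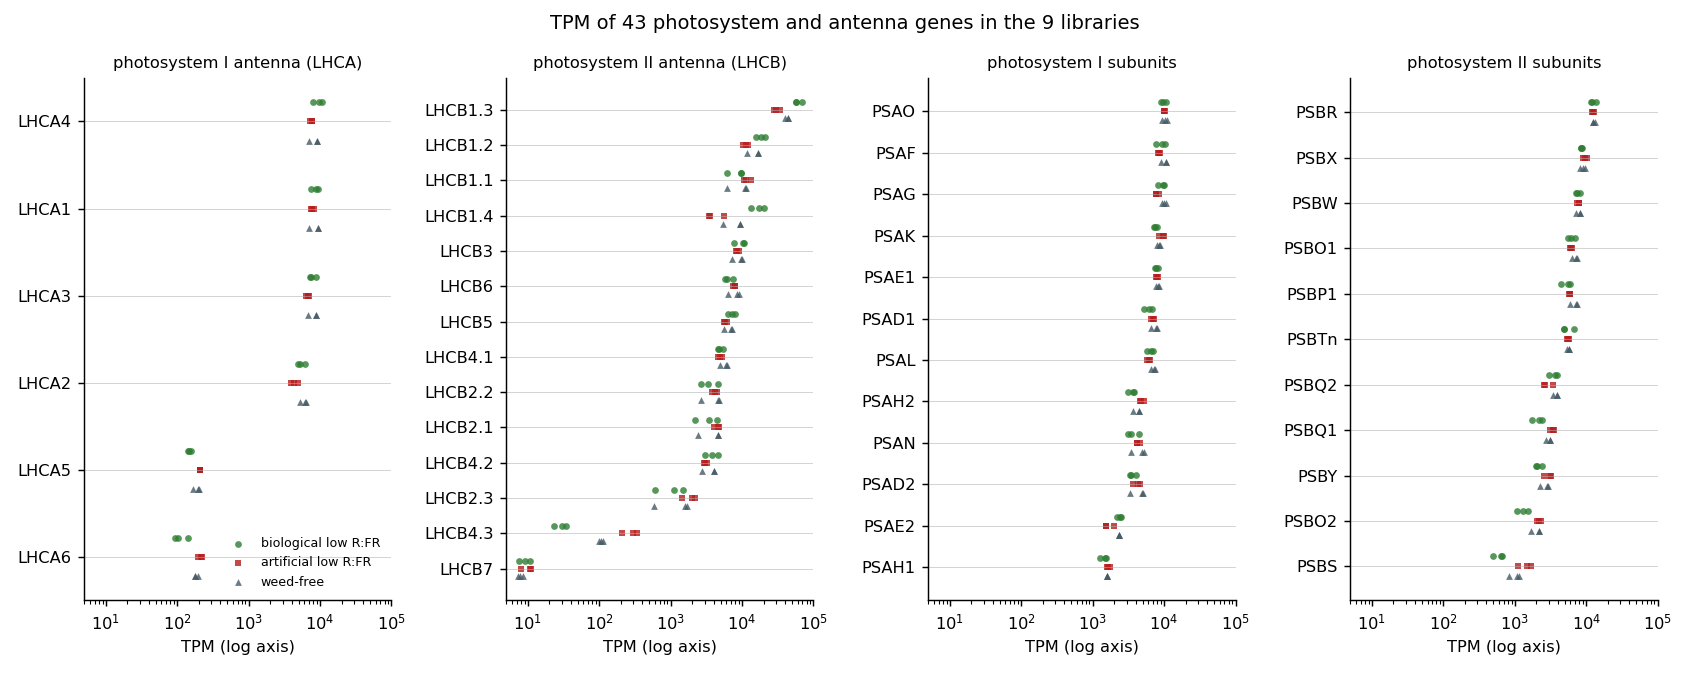
TPM on a log axis for the 43 genes above 0 TPM, by gene group, with 1 point for each library. Green circles are biological libraries, red squares artificial libraries and grey triangles weed-free. LHCB4.3 separates into 3 levels, at 23.6 to 34.3, 209 to 343 and 99.5 to 114 TPM in biological, artificial and weed-free libraries. It is not the only such gene: LHCB1.3 lies at 56326 to 68373, 28039 to 34223 and 40315 to 44147 TPM in the same order.

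Summed by group, the photosystem II antenna held more of all TPM in each biological library than in any artificial one, and photosystem II subunits held slightly less. Sums and shares over the genes are given as a description, with no test. LHCB genes held 16.0, 14.7 and 12.6% of all TPM in biological libraries, 10.1, 9.36 and 10.3% in artificial libraries and 12.7, 12.8 and 9.61% in weed-free. The groups of low R:FR did not overlap, whereas weed-free replicate 3 lay within the artificial range. Photosystem I subunits held 6.32 to 7.65%, 7.22 to 7.44% and 7.08 to 8.26%, and photosystem II subunits 5.13 to 5.93%, 5.94 to 6.17% and 5.63 to 6.44% in biological, artificial and weed-free libraries, and among these only the photosystem II sums of biological and artificial libraries did not overlap. The ratio of summed LHCB to summed LHCA, which no scaling between libraries can change, was 4.59 ± 0.35 in biological libraries, 3.68 ± 0.0846 in artificial libraries and 3.73 ± 0.0576 in weed-free (SD, n = 3 each). Here too the biological libraries lay above the other 6. The LHCB1 copies, which code for the main protein of the trimeric antenna, carried most of this. They held 11.9, 10.1 and 9.25% of all TPM in biological libraries, 5.81, 5.34 and 6.26% in artificial libraries and 6.35 to 8.13% in weed-free. In these sums and ratios LHCB1.5 counts as 0 TPM, as listed. AT2G08665, an opposite-strand gene that covers all of its exons, was listed at 25748 to 49034 TPM and is in none of the sums. Its part was not tested.

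**Figure D2:**
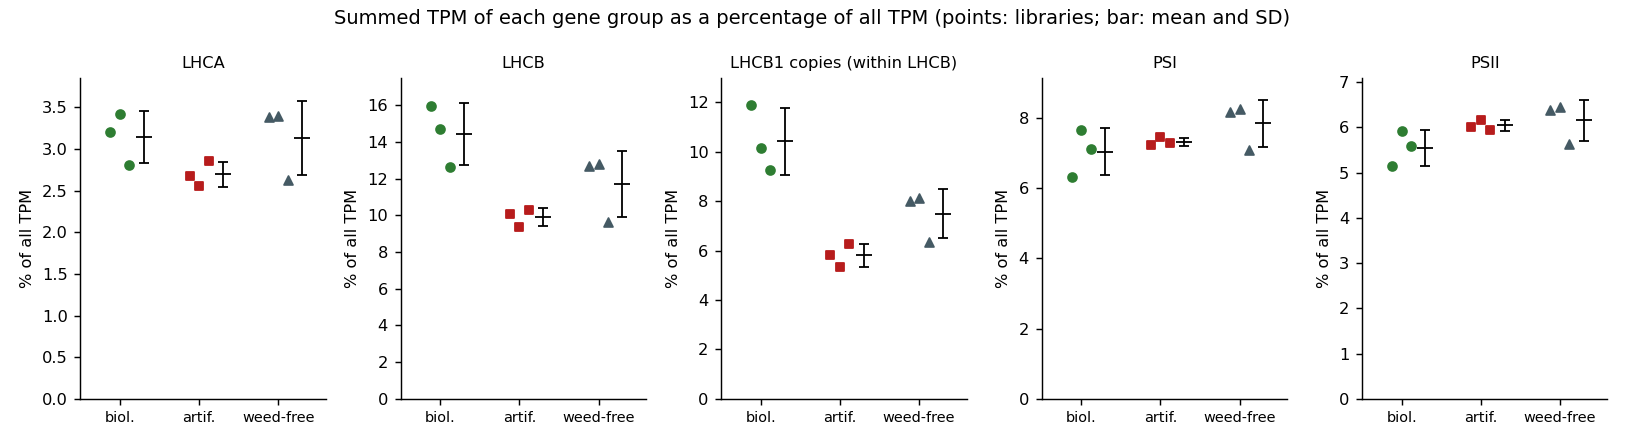
Summed TPM of LHCA, LHCB, the LHCB1 copies alone, photosystem I (PSI) and photosystem II (PSII) genes as a percentage of all TPM, with a point for each library and a bar for the mean and SD (n = 3 a group). The LHCB1 copies hold 9.25 to 11.9% in biological libraries, above the 5.34 to 6.26% of artificial libraries and the 6.35 to 8.13% of weed-free. LHCB1.5 counts as 0 TPM in these sums, and the opposite-strand gene over it is left out.

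The largest differences within the set were those of LHCB4.3, and its upstream sequence is shown beside those of its sister copies, which were not called. LHCB4 codes for CP29, a monomeric antenna protein that joins the trimers to the photosystem II core, and LHCB4.3, also named LHCB8, is the divergent copy of the family. LHCB4.3 (AT2G40100) lies on chromosome 2 at 16745628 to 16747424, LHCB4.1 (AT5G01530) on chromosome 5 at 208866 to 210548 and LHCB4.2 (AT3G08940) on chromosome 3 at 2717557 to 2718923, each on the plus strand with 2 exons (TAIR10.1). The coding sequence of LHCB4.3 was 65.2% identical to that of LHCB4.1 and 66.5% to that of LHCB4.2, while LHCB4.1 and LHCB4.2 were 81.1% identical, and no stretch of 50 bases was shared, so reads of these copies could be told apart. The 250 bases before each annotated start are given 5′ to 3′ (RefSeq, TAIR10.1). Capitals mark CACGTG (G-box), GATAAG (I-box) or CCAATC (a motif of GLK target promoters) on either strand.
LHCB4.1, chr5:208616-208865, plus strand: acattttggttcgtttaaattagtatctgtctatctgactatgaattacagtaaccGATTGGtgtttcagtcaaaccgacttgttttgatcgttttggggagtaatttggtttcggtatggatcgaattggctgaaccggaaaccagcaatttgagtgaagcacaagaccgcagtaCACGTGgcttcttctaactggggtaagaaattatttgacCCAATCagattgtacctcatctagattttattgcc
LHCB4.2, chr3:2717307-2717556, plus strand: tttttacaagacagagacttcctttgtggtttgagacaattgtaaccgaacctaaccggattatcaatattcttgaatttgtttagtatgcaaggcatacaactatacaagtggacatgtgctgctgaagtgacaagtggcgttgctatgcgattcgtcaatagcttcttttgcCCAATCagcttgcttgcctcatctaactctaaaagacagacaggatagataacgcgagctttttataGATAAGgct
LHCB4.3, chr2:16745378-16745627, plus strand: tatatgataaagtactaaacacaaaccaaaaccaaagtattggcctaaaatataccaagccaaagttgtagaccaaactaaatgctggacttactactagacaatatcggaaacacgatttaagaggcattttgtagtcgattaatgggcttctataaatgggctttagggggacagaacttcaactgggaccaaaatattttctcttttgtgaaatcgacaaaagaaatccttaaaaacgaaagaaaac
LHCB4.1 held CCAATC at 194 and 35 bases before the start and CACGTG at 74 bases, and LHCB4.2 held CCAATC at 76 bases and GATAAG at 9 bases. LHCB4.3 held none of the letters searched.

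Across all 44 genes, CCAATC was present in the window of 11 (25.0%), against 2807 of 27444 protein-coding genes (10.2%). It was found before 3 of 6 LHCA and 7 of 15 LHCB genes, before 1 of 11 photosystem II genes and before 0 of 12 photosystem I genes. CACGTG was before 10 of 44 (22.7%), against 6.49% of all protein-coding genes, and GATAAG before 9 of 44 (20.5%), against 12.3%. Matches of such short letters are a description of these windows and not evidence of binding.

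LHCB4.3 took a level of its own in each light environment. It was at 23.6, 34.3 and 30.3 TPM in biological libraries, 343, 300 and 209 TPM in artificial libraries and 114, 104 and 99.5 TPM in weed-free. No library of any group overlapped with another group. On the log2(TPM + 1) scale it fell by 1.83 in biological libraries against weed-free (SE 0.19, limma adjusted p = 0.00128, n = 3 each) and rose by 1.39 in artificial libraries against weed-free (SE 0.19, limma adjusted p = 0.00405). It was 9.29-fold lower in biological than artificial libraries (log2 fold change -3.21, 95% interval -3.62 to -2.81, limma adjusted p = 1.12e-05). LHCB4.1 and LHCB4.2, the abundant copies, were not called: LHCB4.1 was at 4666 to 5401 TPM, 4626 to 5160 TPM and 4921 to 6079 TPM in biological, artificial and weed-free libraries. LHCB4.3 was therefore 0.279, 0.341 and 0.384% of all LHCB4 transcripts in biological libraries, 4.00, 3.77 and 2.50% in artificial libraries and 1.13, 1.02 and 1.28% in weed-free, again with no overlap. On recovered reads, of which LHCB4.3 had few, it was not called against weed-free by edgeR (adjusted p = 0.104 in biological libraries and 0.154 in artificial libraries). DESeq2 gave it no adjusted p in biological libraries and one of 0.316 in artificial libraries against weed-free, and the difference between the low R:FR treatments was called by both tools. An exact permutation test of 3 libraries against 3 cannot give a p under 0.1 for any single gene, so single levels rest on limma, which borrows the spread from all 17783 genes tested.

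In biological libraries against weed-free, 2 of the 43 genes tested rose and 4 fell (limma with Benjamini-Hochberg adjustment over 17783 genes, adjusted p under 0.05). Over all genes tested, 6.20% rose and 3.37% fell, and 9.57% were called in either direction, so the 6 calls are near the background of this comparison. The median log2 fold change of the set was -0.14, against 0.11 over all genes tested. Of the 43 estimates 35 were below 0, beside 6457 of all 17783 genes tested. The libraries of the groups did not overlap for 9 of the 43, against 29.7% of all genes tested. Both genes that rose were LHCB1 copies, and the genes that fell were LHCB4.3, LHCA6, PSBO2 and PSBS. None of 12 photosystem I genes was called, and 1 of them (PSAD1) had an unadjusted p under 0.05, against 5173 of all 17783 genes tested.

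The LHCB1 copies were called unevenly. LHCB1.1 (AT1G29920), LHCB1.2 (AT1G29910) and LHCB1.3 (AT1G29930) lie side by side on chromosome 1 between 10472280 and 10479114, LHCB1.4 (AT2G34430) and LHCB1.5 (AT2G34420) on chromosome 2 between 14522524 and 14525918, and each has 1 exon. The coding sequences of the copies on chromosome 1 are 95.6 to 96.4% identical, and 10.6 to 20.5% of the 50-base stretches of an LHCB1 copy occur in another copy, so the split of reads among them is uncertain. LHCB1.4 was at 20140, 17251 and 13354 TPM in biological libraries, 3524, 3465 and 5661 TPM in artificial libraries and 9203, 9240 and 5409 TPM in weed-free. All biological libraries were above all others, while artificial and weed-free overlapped. LHCB1.4 rose 2.16-fold in biological libraries against weed-free (log2 fold change 1.11, SE 0.26, limma adjusted p = 0.0285) and was 4.06-fold higher in biological than artificial libraries (log2 fold change 2.02, SE 0.26, limma adjusted p = 0.000612).

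LHCB1.3, the most abundant copy, was at 68373, 56326 and 57186 TPM in biological libraries, 29865, 28039 and 34223 TPM in artificial libraries and 43325, 44147 and 40315 TPM in weed-free. Its 3 groups did not overlap. It rose 1.42-fold in biological libraries against weed-free (log2 fold change 0.50, SE 0.14, limma adjusted p = 0.0421) and was 1.97-fold higher in biological than artificial libraries (limma adjusted p = 0.000656). LHCB1.2 was at 20742, 18199 and 15790 TPM in biological libraries, 11477, 10450 and 12000 TPM in artificial libraries and 16517, 16706 and 11628 TPM in weed-free, and it was called between the 2 low R:FR treatments alone (1.61-fold higher in biological libraries, limma adjusted p = 0.00958). LHCB1.1 was at 9767, 9541 and 6156 TPM in biological libraries, 13242, 11454 and 10683 TPM in artificial libraries and 10967, 11250 and 6122 TPM in weed-free. Its biological and artificial libraries did not overlap, and its log2 fold change between them was -0.50 (limma adjusted p = 0.135 without and 0.038 with the replicate number as a block). With the block, LHCB1.3 was no longer called in biological libraries against weed-free (limma adjusted p = 0.0594).

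As a share of the summed LHCB1.1 to LHCB1.4 TPM of a library, LHCB1.1 was 8.21, 9.42 and 6.66% in biological libraries, 22.8, 21.4 and 17.1% in artificial libraries and 13.7, 13.8 and 9.65% in weed-free. LHCB1.4 was 16.9, 17.0 and 14.4% in biological libraries, 6.06, 6.49 and 9.05% in artificial libraries and 11.5, 11.4 and 8.52% in weed-free. LHCB1.1 thus had the smaller share of the pair in biological libraries and the larger in artificial ones. Their upstream windows are shown because they are the only windows of the LHCB genes with AAAAATCT, a site first described for CCA1 on an antenna gene, which is in capitals.
LHCB1.1, chr1:10475970-10476219, minus strand: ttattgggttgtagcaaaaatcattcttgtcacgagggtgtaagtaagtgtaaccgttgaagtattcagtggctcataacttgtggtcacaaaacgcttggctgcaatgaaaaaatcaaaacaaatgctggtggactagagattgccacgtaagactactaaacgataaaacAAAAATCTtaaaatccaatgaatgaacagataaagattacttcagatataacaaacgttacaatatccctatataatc
LHCB1.4, chr2:14524357-14524606, plus strand: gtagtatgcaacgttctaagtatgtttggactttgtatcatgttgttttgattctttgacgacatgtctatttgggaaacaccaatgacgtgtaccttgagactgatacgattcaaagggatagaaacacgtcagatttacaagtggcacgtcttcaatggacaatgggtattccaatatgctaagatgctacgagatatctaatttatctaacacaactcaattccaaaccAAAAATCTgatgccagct
The site began 78 bases before the start of LHCB1.1 and 18 bases before that of LHCB1.4. It was present before 5 of the 44 genes (11.4%), against 6.69% of all protein-coding genes.

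LHCB1.5 was listed at 0 TPM in all 9 libraries and could not be tested in TPM. In the table of normalized counts it had 1134, 1203 and 866 counts in biological libraries, 800, 705 and 746 counts in artificial libraries and 1029, 1031 and 711 counts in weed-free. On recovered reads it was called higher in biological than artificial libraries by edgeR (log2 fold change 0.52, adjusted p = 0.0346) and not by DESeq2 (adjusted p = 0.0553). All of its exon bases lie under a long non-coding RNA gene on the opposite strand, AT2G08665 (chromosome 2, 14522522 to 14523568, plus strand), which was listed at 49034, 47529 and 39658 TPM in biological libraries, 26907, 25748 and 26171 TPM in artificial libraries and 36405, 36395 and 30641 TPM in weed-free. AT2G08665 was 1.72-fold higher in biological than artificial libraries (log2 fold change 0.78, SE 0.14, limma adjusted p = 0.00174). In the same table AT2G08665 took 35.1 to 40.6%, 25.6 to 26.8% and 29.1 to 33.4% of the recovered reads in biological, artificial and weed-free libraries, and the 43 photosystem and antenna genes in that table together took 0.536 to 0.837% in any library, against 24.9 to 31.7% of TPM. Exons of 16 of the 44 genes share bases with exons on the opposite strand, and in 13 of these the opposite gene had the higher mean normalized count. In 3 genes, LHCB1.5, PSAG and PSAH1, at least 50% of exon bases are shared. For PSAG the opposite gene, AT1G55673, averaged 0 TPM and 179172 normalized counts, and PSAG itself 9012 TPM and 378 counts. For PSAH1 the opposite gene, AT3G16130, averaged 0.00746 TPM and 31572 normalized counts, and PSAH1 itself 1553 TPM and 92 counts. For PSAG and PSAH1 the TPM thus lay with the gene itself and most counts with the opposite gene. The 2 measures did not credit these pairs alike. For LHCB1.5 both measures lay mostly with AT2G08665. How strand was set for either measure was not given in the sources used here. Reads of LHCB1.5 and AT2G08665 therefore cannot be told apart, and the count values of LHCB1.5 may not be those of its mRNA.

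LHCB2 codes for the second protein of the trimeric antenna, whose phosphorylation is known to move antenna between the photosystems. Its copies were lowest in replicate 3 of each group. LHCB2.3 (AT3G27690) was at 1098, 1478 and 598 TPM in biological libraries, 2167, 2004 and 1453 TPM in artificial libraries and 1689, 1563 and 585 TPM in weed-free. The artificial libraries overlapped with both other groups. The log2 fold change of LHCB2.3 between biological and artificial libraries was -0.90 with a 95% interval of -2.01 to 0.21 (limma adjusted p = 0.172). With the replicate number as a block it was called (limma adjusted p = 0.0086), while on recovered reads the log2 fold change was -0.19 by edgeR (adjusted p = 0.606) and -0.20 by DESeq2 (adjusted p = 0.723). LHCB2.3 shares 40.6% of its exon bases with a gene on the opposite strand, AT3G27700. That gene averaged 16209 normalized counts, against 95.7 for LHCB2.3. LHCB2.1 and LHCB2.2 were not called with or without the block. LHCB2.1 and LHCB2.2 are 96.6% identical in coding sequence, and their split is uncertain. Replicate 3 was also below both others for 41 of the 43 genes in weed-free, for 16 in biological libraries and for 18 in artificial libraries.

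In the photosystem I antenna, the 4 abundant genes were not called in any comparison, and the 2 rare ones, LHCA5 and LHCA6, differed between the treatments. These proteins are known to link photosystem I to the chloroplast NDH complex, which takes part in cyclic electron flow. LHCA6 (AT1G19150) was at 93.1, 101 and 142 TPM in biological libraries, 213, 222 and 193 TPM in artificial libraries and 193, 177 and 180 TPM in weed-free. The biological libraries lay below the other 6. LHCA6 fell by 0.73 on the log2 scale in biological libraries against weed-free (SE 0.15, limma adjusted p = 0.0185) and was lower than in artificial libraries by 1.89-fold (limma adjusted p = 0.0014). LHCA5 (AT1G45474) was at 142, 157 and 144 TPM in biological libraries, 210, 206 and 209 TPM in artificial libraries and 203, 194 and 167 TPM in weed-free. It was 1.41-fold lower in biological than artificial libraries (limma adjusted p = 0.00739), and against weed-free its log2 fold change of -0.34 missed the threshold (limma adjusted p = 0.080). LHCA4, the most abundant member of this antenna, was at 10658, 9654 and 7865 TPM in biological libraries, 7680, 7244 and 7822 TPM in artificial libraries and 9099, 8966 and 6899 TPM in weed-free.

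Among photosystem II subunits, PSBS, the protein that senses a low pH in the thylakoid lumen and switches on the quenching of excess light energy, had the largest difference. PSBS (AT1G44575, chromosome 1) was at 500, 662 and 633 TPM in biological libraries, 1693, 1493 and 1092 TPM in artificial libraries and 1083, 1130 and 824 TPM in weed-free. The biological libraries were below the other 6, and artificial replicate 3 lay within the weed-free range. PSBS fell by 0.75 on the log2 scale in biological libraries against weed-free (SE 0.19, limma adjusted p = 0.0321). It was 2.36-fold lower in biological than artificial libraries (log2 fold change -1.24, SE 0.19, limma adjusted p = 0.000959). The log2 fold change in artificial libraries against weed-free was 0.48 with an adjusted p of 0.172 by limma.

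PSBO stabilises the manganese cluster that splits water, and *Arabidopsis* has a major and a minor copy. The minor copy, PSBO2 (AT3G50820), was at 1079, 1509 and 1288 TPM in biological libraries, 2366, 2154 and 2019 TPM in artificial libraries and 2178, 2180 and 1694 TPM in weed-free. It fell by 0.65 on the log2 scale in biological libraries against weed-free (SE 0.16, limma adjusted p = 0.0291) and was 1.70-fold lower than in artificial libraries (limma adjusted p = 0.00392). PSBO1, the major copy, was at 5557 to 6990 TPM, 5973 to 6275 TPM and 6282 to 7443 TPM in biological, artificial and weed-free libraries and was not called. PSBO2 thus made up 16.3, 17.8 and 17.4% of PSBO transcripts in biological libraries, 27.4, 26.5 and 25.0% in artificial libraries and 23.0, 22.7 and 21.2% in weed-free, 3 ranges that did not overlap.

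PSBQ, another extrinsic protein of the water-splitting complex, also differed in the share of its copies. PSBQ1 (AT4G21280) was at 1730, 2192 and 2435 TPM in biological libraries, 3530, 3414 and 3159 TPM in artificial libraries and 3076, 3128 and 2731 TPM in weed-free. It was 1.60-fold lower in biological than artificial libraries (limma adjusted p = 0.00466) and missed the threshold against weed-free (log2 fold change -0.50, SE 0.14, limma adjusted p = 0.0502). PSBQ2 was at 3045, 3888 and 3606 TPM in biological libraries, 2627, 2526 and 3426 TPM in artificial libraries and 3925, 3901 and 3403 TPM in weed-free, and was not called. PSBQ1 made up 36.2, 36.1 and 40.3% of PSBQ transcripts in biological libraries, 57.3, 57.5 and 48.0% in artificial libraries and 43.9, 44.5 and 44.5% in weed-free, again in 3 ranges that did not overlap. PSBR, the most abundant gene of photosystem II, was at 11770 to 13728 TPM, 12054 to 12970 TPM and 12408 to 13144 TPM in biological, artificial and weed-free libraries, and its log2 fold changes lay within 0.03 of 0 with 95% intervals within -0.29 to 0.26.

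**Figure D3:**
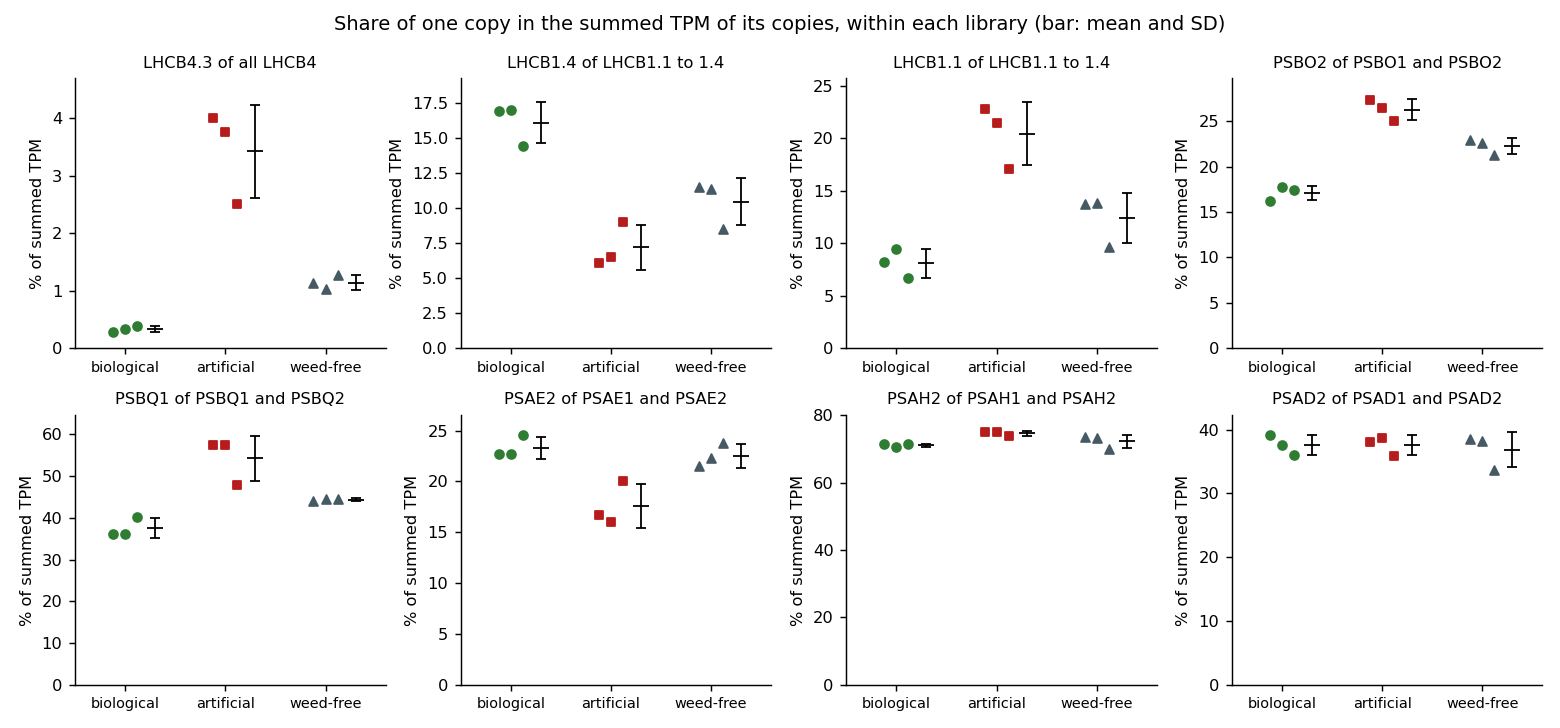
Share of 1 copy in the summed TPM of its copies within a library, in percent, with a point for each library and a bar for the mean and SD (n = 3 a group). PSBO2 is at 16.3 to 17.8% in biological libraries, 25.0 to 27.4% in artificial libraries and 21.2 to 23.0% in weed-free, while PSAD2 overlaps between the groups at 36.1 to 39.2%, 35.8 to 38.8% and 33.7 to 38.6%.

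Of the photosystem I subunits, none was called against weed-free. PSAO, which takes part in docking antenna to photosystem I, was the most abundant of them, at 8924 to 10633 TPM, 9968 to 10121 TPM and 9355 to 10875 TPM in biological, artificial and weed-free libraries. PSAE2 and PSAH2 differed between the low R:FR treatments. PSAE forms part of the ferredoxin-docking ridge, and its minor copy PSAE2 (AT2G20260) was at 2163, 2418 and 2479 TPM in biological libraries, 1523, 1557 and 1963 TPM in artificial libraries and 2321, 2370 and 2366 TPM in weed-free. The artificial libraries were below the other 6, and PSAE2 was 1.41-fold higher in biological than artificial libraries (limma adjusted p = 0.0141). PSAH2 (AT1G52230), a copy of the subunit where mobile antenna docks, was at 3132, 3630 and 3741 TPM in biological libraries, 4683, 5225 and 4558 TPM in artificial libraries and 4396, 4409 and 3646 TPM in weed-free. It was 1.38-fold lower in biological than artificial libraries (limma adjusted p = 0.0198). PSAE2 shares 10.4% and PSAH2 24.8% of exon bases with a gene on the opposite strand.

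**Figure D4:**
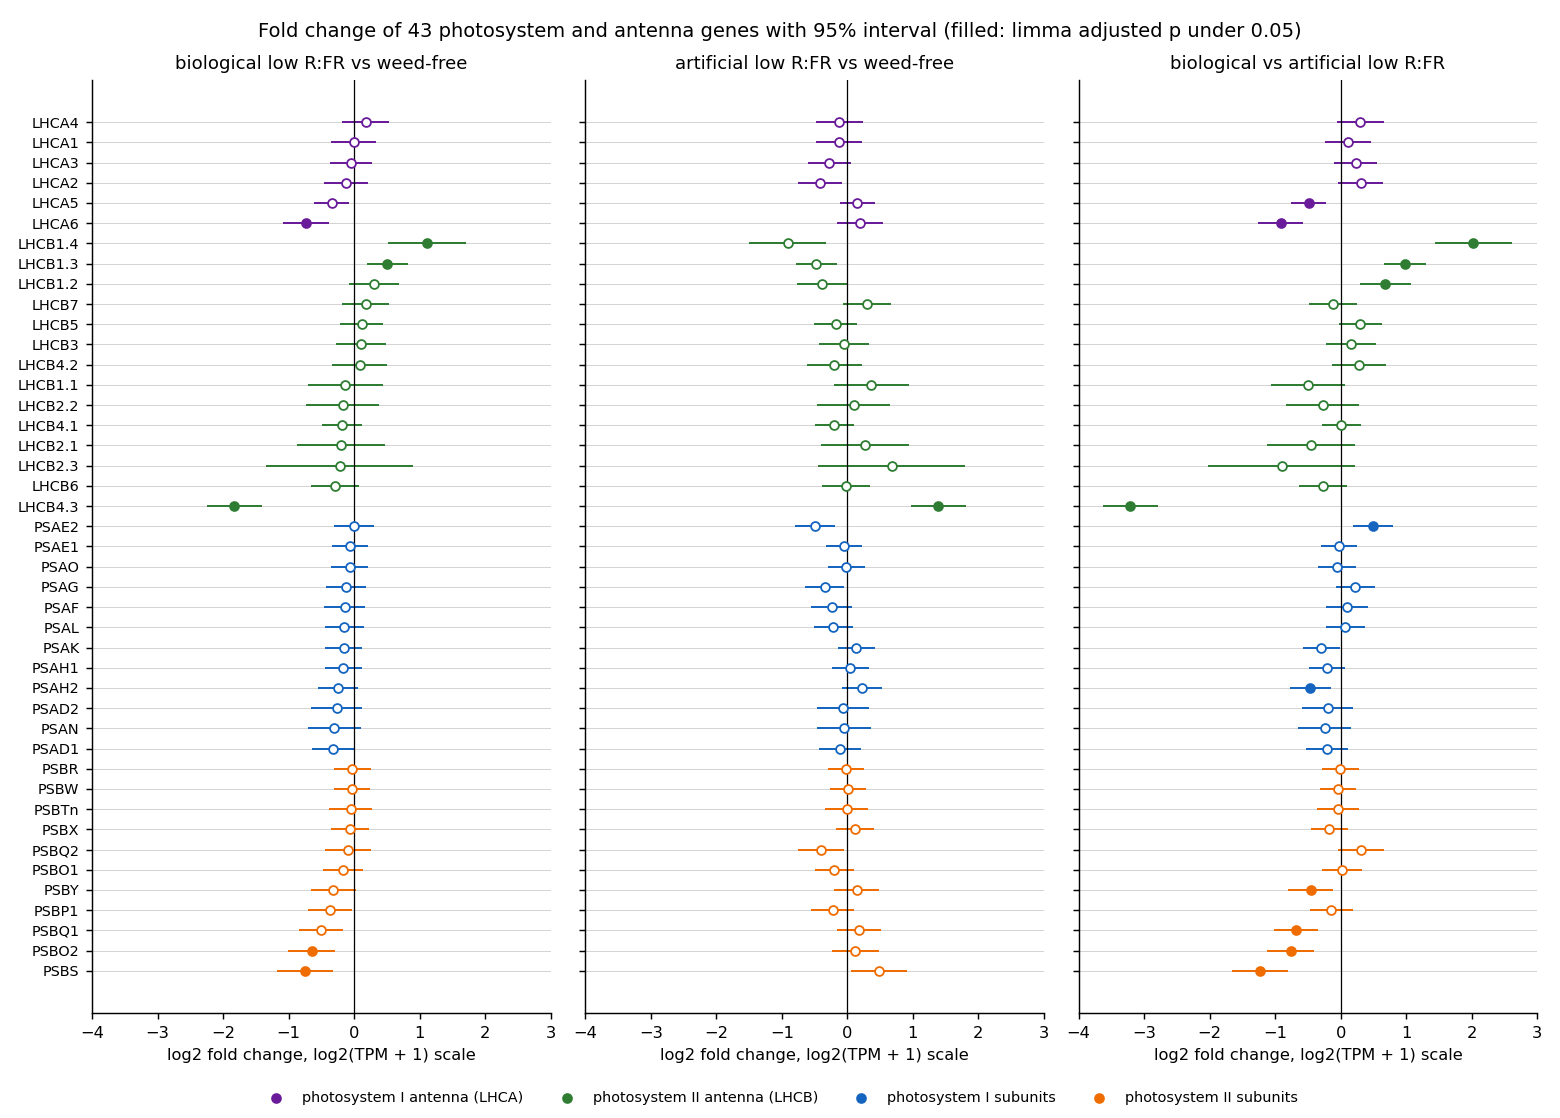
Log2 fold change on the log2(TPM + 1) scale (points) with the 95% interval (lines) for 43 genes in each of the 3 comparisons, coloured by gene group. Filled points have a limma adjusted p under 0.05: 6 in biological libraries against weed-free, 1 in artificial libraries against weed-free and 12 in biological against artificial libraries.

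In artificial libraries against weed-free, 1 of the 43 genes rose (LHCB4.3) and 0 fell by limma, against 2.53% that rose and 1.24% that fell over all genes tested (3.77% in either direction). The median log2 fold change was -0.05 for the set and -0.04 for all genes tested, and the libraries of the groups did not overlap for 13 of the 43, against 28.0% of all genes tested. The comparison shares its weed-free libraries with that of biological libraries. At an unadjusted p under 0.05 by limma, 2 genes were higher and 7 lower, beside 1844 higher and 1782 lower of all 17783 genes tested. The 7 were LHCA2, LHCB1.2, LHCB1.3, LHCB1.4, PSAE2, PSAG and PSBQ2. On recovered reads 0 rose or fell by edgeR and by DESeq2, which over all genes called 267 of 6719 and 302 of 16597. With the replicate number as a block, PSAE2 also fell (log2 fold change -0.49, limma adjusted p = 0.0497), against 0.0618 without it. LHCB1.4, at a log2 fold change of -0.91 (SE 0.26, limma adjusted p = 0.079), was the largest estimate that missed the threshold. Without artificial replicate 3, PSBS rose as well and LHCB1.3, LHCB1.4, PSAE2 and PSBQ2 fell. Over all genes that fit gave 979 higher and 1035 lower in place of 450 and 221. Without biological replicate 3 PSAE2 fell, and without weed-free replicate 3 LHCB1.4 fell.

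Between biological and artificial libraries, at the same stated ratio of 0.3, 4 of the 43 genes were higher and 8 lower in biological libraries, against 23.8% higher and 13.6% lower over all genes tested. The set's 12 calls (27.9%) stand beside the 37.4% called over all genes in this comparison. The libraries did not overlap for 19 of the 43, against 53.1% of all genes tested. LHCB1.2, LHCB1.3, LHCB1.4 and PSAE2 were higher, and LHCA5, LHCA6, LHCB4.3, PSAH2, PSBO2, PSBQ1, PSBS and PSBY were lower. PSBY, a small subunit of photosystem II, was at 1969, 2435 and 2074 TPM in biological libraries and 3185, 3100 and 2602 TPM in artificial libraries (log2 fold change -0.46, SE 0.15, limma adjusted p = 0.0327). By group, 3 of 20 antenna genes tested were higher and 3 lower, 1 of 12 photosystem I genes was higher and 1 lower, and 4 of 11 photosystem II genes were lower. The place in the growth chambers went with the light treatment, and the 2 cannot be told apart.

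**Figure D5:**
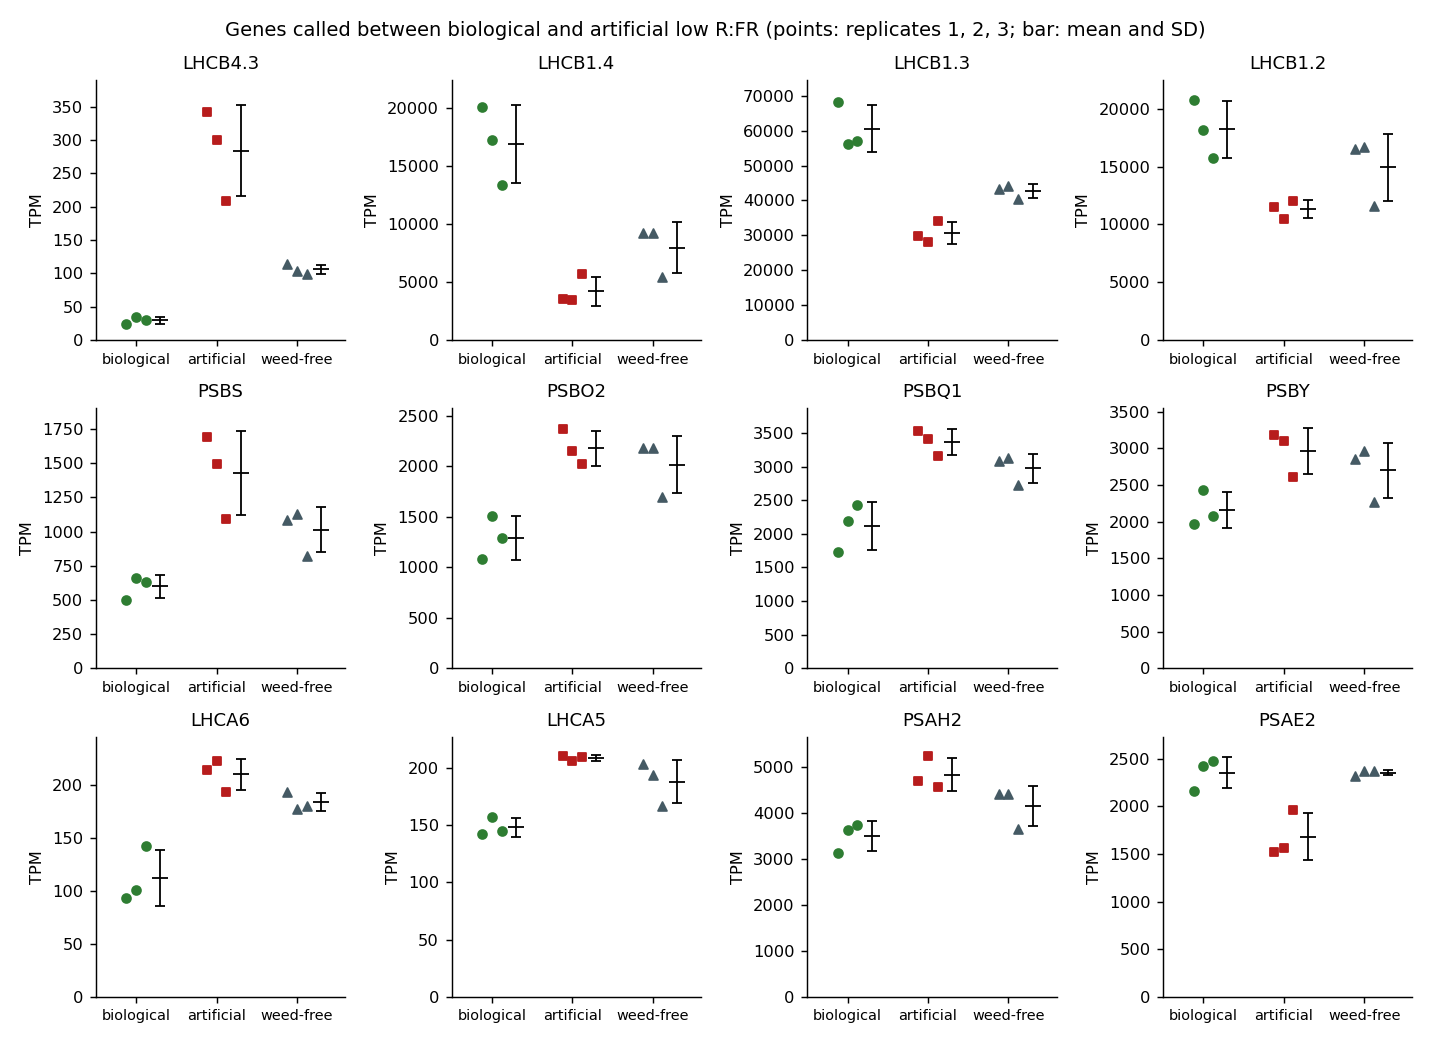
TPM of the 12 genes called between biological and artificial libraries, with a point for each library (replicates 1, 2 and 3 from left to right) and a bar for the mean and SD (n = 3 a group). In all 12 panels the biological and artificial libraries do not overlap, but the genes were picked by their call between these groups. Of all genes tested, 53.1% do not overlap here. PSBS runs from 500 to 662 TPM in biological libraries and from 1092 to 1693 TPM in artificial libraries.

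Not all calls stood in the count tests or when a library was left out. These genes held 0.536 to 0.837% of recovered reads against 24.9 to 31.7% of TPM. Of the 16 that share exon bases with the opposite strand, 13 had fewer mean normalized counts than an opposite gene. The counts may thus not be those of their mRNA, and they cannot settle whether a call in TPM holds or fails. Of the 6 calls in biological libraries against weed-free, PSBO2 was the one also made on recovered reads, by edgeR (adjusted p = 0.00798) and by DESeq2 (adjusted p = 0.0012). LHCA6 had an adjusted p of 0.417 by edgeR and 0.547 by DESeq2, PSBS of 0.0608 and 0.0638, LHCB1.3 of 0.417 and 0.451, and LHCB1.4 of 0.257 and 0.0914. LHCB4.3 had 0.104 by edgeR and no adjusted p by DESeq2. Between biological and artificial libraries both tools called LHCB1.3, LHCB1.4, LHCB4.3, PSBO2 and PSBS, and edgeR called LHCA6 and PSAH2 too. Against weed-free, LHCB4.3 was called in biological and in artificial libraries with each library left out in turn. Of the other 5 calls in biological libraries against weed-free, none was made without biological replicate 1, weed-free replicate 1 or weed-free replicate 2, where LHCB4.3 was the single call, and without biological replicate 2 LHCB1.3 and LHCB1.4 were not called. LHCB1.3 was also not called without artificial replicate 1 or 2 or weed-free replicate 3. Between biological and artificial libraries, the calls of LHCA5, LHCA6, LHCB1.2, LHCB1.3, LHCB1.4, LHCB4.3, PSBO2, PSBQ1 and PSBS stood with each library left out, while PSAE2, PSAH2 and PSBY lost theirs without artificial replicate 1 or 2. PSAH2 and PSBY lost theirs without biological replicate 1 too, and PSBY without biological replicate 3. Median-of-ratios scaling, which moved the median of all genes by 0.11 (log2) in biological libraries against weed-free, left LHCA6 and LHCB4.3 as calls there, as did leaving out the filter on low values, and over all genes it gave 1112 higher and 1373 lower in place of 1103 and 599. Between biological and artificial libraries it moved that median by 0.16, took away the calls of LHCB1.2 and PSAE2, and gave 3395 higher and 3960 lower over all genes in place of 4240 and 2418. Replicates 1 and 2 of each group alone gave 2 higher and 10 lower for biological against weed-free and 2 and 8 for artificial against weed-free. For biological against artificial libraries they gave 9 and 11. All calls of the fit to 9 libraries were among these. Over all 17783 genes replicates 1 and 2 alone gave, in the same order, 3445 higher and 1605 lower, 1871 and 1212, and 4805 and 3239. The fit to 9 libraries gave 1103 and 599, 450 and 221, and 4240 and 2418. In bulk leaf RNA, fewer cells of a type and less RNA per cell cannot be told apart.

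The remaining genes were not called in any comparison. In the antenna they were LHCA1, LHCA2 and LHCA3 of photosystem I and LHCB3, LHCB5 (CP26), LHCB6 (CP24) and LHCB7 of photosystem II, besides those named. LHCA2 had the largest of these differences in artificial libraries against weed-free, at 4314, 3967 and 4980 TPM in artificial libraries and 6144, 6422 and 5193 TPM in weed-free (log2 fold change -0.42, SE 0.15, limma adjusted p = 0.13). LHCB7 was at 10.5, 9.14 and 7.44 TPM in biological libraries, 10.9, 10.9 and 7.93 TPM in artificial libraries and 8.44, 7.71 and 7.29 TPM in weed-free. In photosystem I they were PSAD1, PSAD2 and PSAE1 on the ferredoxin side, PSAF and PSAN on the plastocyanin side, PSAG and PSAK at the antenna, and PSAH1, PSAL and PSAO on the docking side. PSAG was at 7584, 7584 and 8440 TPM in artificial libraries and 10022, 10546 and 9379 TPM in weed-free, which did not overlap (log2 fold change -0.34, limma adjusted p = 0.156), and 61.4% of its exon bases lie under a gene on the opposite strand. PSAD1, the larger of its pair, was at 5147, 6730 and 6158 TPM in biological libraries and 7777, 8033 and 6604 TPM in weed-free (log2 fold change -0.32, limma adjusted p = 0.161). In photosystem II they were PSBO1, PSBP1, PSBQ2, PSBR, PSBTn, PSBW and PSBX, and PSBP1, of the water-splitting complex, was at 4456 to 6010 TPM, 5762 to 5941 TPM and 5981 to 7399 TPM in biological, artificial and weed-free libraries. Other fits called some of these genes. On recovered reads PSAK was lower in biological than artificial libraries by edgeR (log2 fold change -0.55, adjusted p = 0.0324) and not called by DESeq2 (adjusted p = 0.0547). With replicates 1 and 2 alone, PSAD2 and PSBP1 fell in biological libraries against weed-free, and LHCA2, LHCA3, PSAG and PSBQ2 fell in artificial libraries against weed-free. In that fit LHCA2, LHCA4, LHCB4.2, LHCB5 and PSBQ2 were higher and PSAK was lower in biological than artificial libraries.

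The genes for electron carriers between and after the photosystems, with the ATP synthase, differed between the treatments. Of 14 such genes, 4 fell in biological libraries against weed-free (ATPC1, ATPD, FD2 and LFNR1) and none rose, with a median log2 fold change of -0.40, against 3.37% that fell, 6.20% that rose and a median of 0.11 over all genes tested. FD2, the main leaf ferredoxin and the electron acceptor of photosystem I, was at 2255, 3342 and 3386 TPM in biological libraries, 6884, 6815 and 5407 TPM in artificial libraries and 6387, 6032 and 4369 TPM in weed-free. Of the 14, 11 were lower in biological than artificial libraries and 0 were higher by limma, against 13.6% lower and 23.8% higher over all genes tested. At an unadjusted p under 0.05, 0 of the 14 were higher, against 5618 of all 17783 genes tested. FD1, the minor leaf ferredoxin, had the largest difference, at 226, 266 and 315 TPM in biological libraries against 1313, 1359 and 630 TPM in artificial libraries (log2 fold change -1.96, SE 0.26, limma adjusted p = 0.000735). PGR5, a protein of cyclic electron flow around photosystem I, was the single gene of the list called in artificial libraries against weed-free (log2 fold change 0.80, SE 0.18, limma adjusted p = 0.0347), where 2.53% of all genes tested rose.

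Of 14 genes for the insertion of antenna proteins and the assembly of photosystems, 2 fell in biological libraries against weed-free (PSB28 and CPSRP54), 1 rose in artificial libraries against weed-free (PSB28), and 8 were lower and 1 higher in biological than artificial libraries. Over all genes tested, 3.37% fell in biological and 2.53% rose in artificial libraries against weed-free, and 13.6% were lower and 23.8% higher in biological than artificial libraries. PSB28, an assembly factor of photosystem II, was at 156, 192 and 245 TPM in biological libraries, 634, 664 and 477 TPM in artificial libraries and 381, 361 and 335 TPM in weed-free. Its 3 groups did not overlap, with the same order of groups as LHCB4.3. ALB3, the insertase that places antenna proteins in the membrane, was the gene that was higher in biological than artificial libraries (log2 fold change 0.42, SE 0.13, limma adjusted p = 0.0271).

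GLK1 was at 272, 268 and 267 TPM in biological libraries, 299, 297 and 304 TPM in artificial libraries and 257, 250 and 289 TPM in weed-free, with no call. GLK2 was at 120, 113 and 71.3 TPM in biological libraries, 167, 189 and 173 TPM in artificial libraries and 116, 114 and 73.0 TPM in weed-free, and it was lower in biological than artificial libraries (log2 fold change -0.83, SE 0.22, limma adjusted p = 0.0144). Of the mesophyll markers, RBCS1A, a small subunit of Rubisco, was at 19121, 21132 and 24974 TPM in biological libraries, 46419, 48943 and 39967 TPM in artificial libraries and 33212, 34833 and 30110 TPM in weed-free. All 5 mesophyll markers were lower in biological than artificial libraries by limma, with a median log2 fold change of -1.35, and 4 of 5 fell in biological libraries against weed-free, beside the 13.6% and 3.37% of all genes tested given above. The part of these shared differences in the results on photosystem and antenna genes was not tested.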

How the data were processed

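RNA-seq of 9 leaf libraries was analysed from the processed files of the authors. Their notes and methods name Bowtie2 2.4.3, the TAIR10.1 genome, HTSeq 0.13.5 and DESeq2 1.30.1, while the tool that computed TPM is not given in the sources used here. The authors deposited TPM, FPKM and coverage (signal) per gene for each library, and normalized counts, gene counts divided by a size factor (signal), for 16601 genes. The deposited tables of log2 fold changes and p-values of the authors' own comparisons were not used. In the normalized counts, 100% of values were whole reads at a tolerance of 1e-06, and the recovered reads numbered 1683076 to 5025090 a library. TPM keeps no read total. Recovered reads are those in the genes of that table, not the whole depth of a library, and the mapped-read totals listed by the study were not used here.

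limma 3.58.1 (R 4.3.3, trend and robust) was run on log2(TPM + 1) for the 17783 genes at 1 TPM or more in at least 3 libraries, in 1 fit of the 3 groups, two-sided, with Benjamini-Hochberg adjustment over all of them. Of the 44 genes, 43 passed this filter, all but LHCB1.5. Normalized counts also covered 43 of them, all but LHCB7. A fold change on this scale understates the change of genes near 1 TPM. The count tests on recovered reads, edgeR 4.0.16 (quasi-likelihood) and DESeq2 1.42.0, were alternatives: edgeR called 305, 267 and 1906 genes of 6719 and DESeq2 315, 302 and 1564 for biological against weed-free, artificial against weed-free and biological against artificial libraries. The other alternatives were another pseudocount, no filter, median-of-ratios scaling, nuclear genes alone, a replicate block, each library left out, replicates 1 and 2 alone and scaling outside the set. The limma fit was tested on simulated data.

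The genes, the lists and the tests were chosen with earlier results of these data known. Genes given with their values were, in each of the 4 groups, the most abundant, the 2 with the smallest adjusted p in each comparison and any called against its group median, with LHCA5, LHCA6, LHCB4.3, LHCB7 and the LHCB1 and LHCB2 copies. Of each other list up to 3 genes with the smallest adjusted p were named. LHCB4.1, LHCB4.2, PSBO1, PSBQ1, PSBY, PSBP1, PSAD2, LFNR1 and ALB3 were added after their values were seen, as partners of these genes, as calls or as examples. Replicate numbers were checked for pairing: deviations of same-numbered libraries correlated at -0.03 to 0.31, over 0.1 in 6 of 9 pairs, and in all 3 pairs of artificial and weed-free libraries, so a replicate block is given there. Positions and the 250-base windows came from RefSeq TAIR10.1, in which start, end and strand of 44 of 44 genes were the same as in the files. Python 3.11.15, scipy 1.17.1, Biopython 1.88 and matplotlib 3.10.9 were used.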

Additional observations from a re-analysis of the deposited data

Results flagged for a closer look

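For 12 of the 43 genes tested the effects of the 2 sources of low R:FR differed in the direct test of biological against artificial libraries (limma, adjusted p under 0.05). This is 27.9% of the set, below the 37.4% called over all genes tested. On the log2 scale the effect of biological minus artificial low R:FR was 0.68 for LHCB1.2, 0.98 for LHCB1.3, 2.02 for LHCB1.4 and 0.49 for PSAE2. It was -0.49 for LHCA5, -0.92 for LHCA6, -3.21 for LHCB4.3, -0.46 for PSAH2, -0.76 for PSBO2, -0.68 for PSBQ1, -1.24 for PSBS and -0.46 for PSBY. Among these, LHCB4.3 alone was called against weed-free in both treatments, and in opposite directions. The other 11 were not called in artificial libraries against weed-free. Clock genes and mesophyll markers differed between the same groups, and their part was not tested.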

How the results depend on the processing

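In biological libraries against weed-free, the 2 higher genes became 0 with no filter, 0 with median-of-ratios scaling, 0 with edgeR and 0 with DESeq2, and the 4 lower became 2, 2, 1 and 1. Replicates 1 and 2 alone, chosen after seeing the data, gave 10 lower, while over all genes they gave 1605 lower in place of 599. Leaving out each library gave 0 to 2 higher and 1 to 6 lower, beside 156 to 2425 and 35 to 1129 over all genes. In artificial libraries against weed-free, edgeR and DESeq2 gave 0 higher. Replicates 1 and 2 alone gave 2 higher and 8 lower, while over all genes they gave 1871 and 1212 in place of 450 and 221. Leaving out each library gave 1 to 2 higher and 0 to 4 lower, beside 90 to 979 and 32 to 1035 over all genes. Scaling over nuclear genes outside the set, also chosen after seeing the data, gave 1 lower. Between biological and artificial libraries, median-of-ratios scaling gave 2 higher and DESeq2 gave 2 higher and 3 lower. Replicates 1 and 2 alone gave 9 higher, while over all genes they gave 4805 higher in place of 4240. Leaving out each library gave 3 to 6 higher and 6 to 9 lower, beside 2163 to 4954 and 1580 to 2657 over all genes. Causes were not tested.

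With the replicate number as a block, 1 higher and 4 lower were called in biological libraries against weed-free, 1 and 1 in artificial libraries against weed-free, and 4 and 10 in biological against artificial libraries. LHCB1.3 lost its call against weed-free, and LHCB1.1 and LHCB2.3 gained one between biological and artificial libraries. Over all genes the block gave 819 higher and 649 lower in artificial libraries against weed-free, against 450 and 221 without it.

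Median-of-ratios scaling moved the median of all genes by 0.11 (log2) in biological libraries against weed-free and by 0.16 in biological against artificial libraries. It turned 1103 higher and 599 lower genes into 1112 and 1373, and 4240 and 2418 into 3395 and 3960. No alternative reversed a called fold change of a named gene. Of 661 values of named genes under alternatives, 561 stayed on their side of the threshold, 63 lost the call and 37 gained one. The pseudocount of 0.1 TPM and nuclear genes alone changed no count. The set held under 1% of recovered reads against 24.9 to 31.7% of TPM, so the count tests cannot settle whether a call in TPM holds or fails.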
